A study of Homo sapiens with 12 samples.

Results

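The 4 libraries described here follow RNA made before a chase in A375/211, the human melanoma line A375 made to overexpress the gene of the microRNA miR-211. A375 carries an activating BRAF mutation, which keeps the ERK signalling pathway on. They are 4 of the 12 libraries of the series, and they were chosen by line and assay alone. BRIC-seq marks new RNA with the nucleoside analogue 5-bromouridine, and RNA that carries the mark is later pulled down with an antibody and sequenced. The marking lasted 24 h, and cells were taken 0, 1, 3 or 6 h after its end, with 1 library per time. The other groups used here are 4 libraries of the parental A375 line at the same times, grown, labelled and treated alike but without the added gene, and 2 RNA-seq libraries of total RNA from A375/211. All cells were cultured in the same medium. The sources used here do not give the vector or promoter of the added gene, or say whether the line is a single clone.

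An mRNA usually decays after its poly(A) tail is shortened by the CCR4-NOT complex, and then loses its cap or is digested from its end. Sequences in the 3' untranslated region (3' UTR) set much of the pace: AU-rich elements and Pumilio sites recruit proteins that call in the deadenylase, and microRNAs guide Argonaute and TNRC6 proteins to matching sites. Transcripts of signalling and regulatory genes are known for short lives, and those of metabolic enzymes and structural proteins for long ones. A microRNA recognises its targets mainly through its seed, bases 2 to 8. The mature miR-211-5p is shown because its seed sets the target site searched for below; it is given 5' to 3' from RefSeq (GRCh38.p14, chr15:31065095-31065116, minus strand) with the seed in capitals.
miR-211-5p: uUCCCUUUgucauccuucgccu
The complement of that seed in a target is AAAGGGA.

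The libraries held 2783520, 4534806, 6255576 and 6663297 counts at 0, 1, 3 and 6 h, so depth grew with the time of collection; its part in the slopes was not tested. Levels are given as CPM, the usual count relative to library size, after TMM scaling, which sets the bulk of genes to a common level. The TMM factors were 1.25, 1.08, 1.02 and 0.724. The slope of a gene is the change of its log2 level per hour with its standard error (SE), so it ranks transcripts against the rest of the labelled RNA and is not an absolute decay rate: a gene with a negative slope lost label faster than the scaled total and a gene with a positive slope lost it more slowly. No spike-in was used to set an absolute scale here. With 1 library per time, the spread comes from the distance of 4 points from a line, and the p-values do not cover variation between cultures. In bulk libraries, fewer cells and less RNA per cell cannot be told apart.

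The added gene was seen in the line and not in its parent. The MIR211 row held 9, 11, 2 and 3 counts in A375/211 at 0, 1, 3 and 6 h and none in any of the 4 A375 libraries. These counts are too few for the test, and the row stands for the precursor gene, not for the mature microRNA. TRPM1, the gene whose intron holds MIR211, had 2 counts at 0 h and none later. Of 8 melanocyte lineage markers, 7 had counts in these libraries, among them MITF, SOX10 and DCT, and TYR had none. Of the markers of other cells, 7 of 10 keratinocyte, 6 of 10 leukocyte and 4 of 7 endothelial markers had no count at any time, while 8 of 9 fibroblast markers had some. LUM, CD74, CD68 and LYZ, which are markers of fibroblasts or leukocytes, were detected at every time. The summed level of the 10 leukocyte markers was 167, 116.8, 224 and 685 CPM at 0, 1, 3 and 6 h, and the 3 of them that were tested rose. The sum of the 9 fibroblast markers was 38.1, 53.1, 69.7 and 139.6 CPM, and 1 of 4 tested rose. The samples are cultures of a melanoma line, and no label names other cells in them. The source of these marker RNAs was not tested.

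Of 9763 genes tested, 2207 fell (22.6%) and 1965 rose (20.1%) relative to the scaled labelled RNA at an adjusted p under 0.05 in edgeR's quasi-likelihood test. The median slope of all tested genes was -0.02 log2 per hour. Genes that fell had a median level 4.39 times higher at 0 h than at 6 h, and genes that rose a median level 3.24 times higher at 6 h than at 0 h. Over the fallers, the median change was -0.06 log2 per hour from 0 to 1 h. It was -0.46 from 1 to 3 h, the fastest step, and -0.33 from 3 to 6 h. Fallers were called by a slope in which later times weigh most, so a small first step is partly a product of that choice. Of the fallers, 1100 (49.8%) were lower at every later time, and of the risers 1303 (66.3%) were higher at every later time. The calls rest on the last time point. Without the 6 h library no gene passed (2293 had an unadjusted p under 0.05), and without the 1 h library 1286 fell and 978 rose.

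The test asks for counts at every time, which removes genes that fell to few counts. Of 15578 genes with at least 10 counts in some library, 5815 were not tested for this reason. When these were kept, in a filter chosen after seeing the data, 2617 genes fell (16.8%) and 2389 rose (15.3%). Among the 5815 added genes, 1284 fell and 220 rose. A gene could enter this fit through only the time at which it was high, so these counts are partly a product of the filter. The same limit holds wherever the wider filter is used below. The transcription factor gene MYC is 1 of them, with 16.6 CPM at 0 h, 9.03 at 1 h, 1.59 at 3 h and 0.628 at 6 h. Its slope in that fit was -0.80 ± 0.12 (edgeR adjusted p = 0.0133). The 6 h value of MYC rests on 3 counts.

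**Figure D1:**
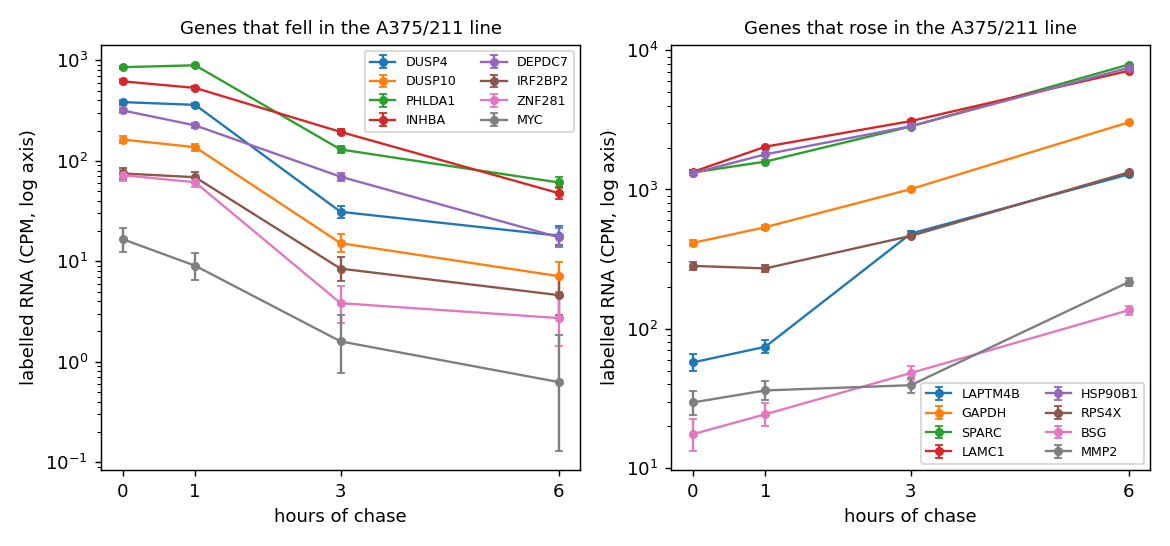
Labelled RNA of 8 genes that fell (left; MYC passed only in the fit with the wider filter) and 8 that rose (right) in A375/211, as CPM on a log axis against hours of chase. Points are single libraries and bars are 95% Poisson intervals, which cover counting error only; DUSP4, DUSP10, PHLDA1, IRF2BP2 and ZNF281 dropped most between 1 and 3 h, and most risers climbed at each time.

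The steepest falls included genes of transcription factors and phosphatases. Among genes with a log2 CPM averaging 5 or more that moved the same way at every step, the 12 most negative slopes ran from -0.91 ± 0.18 to -0.72 ± 0.05 log2 per hour. ZNF281, a zinc finger transcription factor gene (ENSG00000162702; chr1:200404940-200410056, minus strand; GENCODE 44, hg38), had 72.2 CPM at 0 h, 61.1 at 1 h, 3.83 at 3 h and 2.72 at 6 h. Its level at 1 h was 16.0 times that at 3 h, and the 3 and 6 h values were close. DUSP10, which encodes a phosphatase of stress-activated MAP kinases (ENSG00000143507; chr1:221701424-221742089, minus strand), had 163 CPM at 0 h, 137 at 1 h, 15.1 at 3 h and 7.12 at 6 h, a fall of 22.9-fold with a slope of -0.83 ± 0.13 (edgeR adjusted p = 0.0102). DEPDC7 declined more evenly, with 318 CPM at 0 h, 225 at 1 h, 69.5 at 3 h and 17.4 at 6 h and a slope of -0.72 ± 0.05. In ZNF281 and DUSP10 most of the drop lay between 1 and 3 h. The other 9 were DUSP4, HELLPAR, RBM12B, IL1RAPL1, IRF2BP2, PPTC7, NFKBIZ, GABPB1-AS1 and SLC30A1. NFKBIZ, which encodes a nuclear cofactor of NF-kappaB, stood at 90.0, 46.2, 8.61 and 5.02 CPM and was lower at each time (-0.72 ± 0.12). Of these 12, GABPB1-AS1 had the lowest level at 1 h relative to 0 h, with 156, 54.4, 15.9 and 7.54 CPM. It is an antisense transcript, and the sources used here do not say how reads were assigned to strands.

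Genes that end or relay ERK signalling lost label fast. Of 23 genes on the list of ERK feedback and output, 18 were tested. Of these 13 fell (72.2%, against 22.6% of all tested genes) and none rose. The median slope was -0.45 log2 per hour against -0.02 for all tested genes. DUSP4 and DUSP6 encode phosphatases that remove the activating phosphates of ERK. DUSP4 had 384 CPM at 0 h, 361 at 1 h, 31.1 at 3 h and 18.0 at 6 h, a fall of 21.4-fold with a slope of -0.82 ± 0.15 (edgeR adjusted p = 0.0115). DUSP6 had 68.6 CPM at 0 h, 39.5 at 1 h, 4.15 at 3 h and 3.14 at 6 h and a slope of -0.81 ± 0.15. DUSP4 was near its 0 h level at 1 h, DUSP6 was lower by then, and both were far lower at 3 h. PHLDA1, a gene induced by growth factors (ENSG00000139289; chr12:76025447-76031776, minus strand), had 856 CPM at 0 h, 894 at 1 h, 129.8 at 3 h and 60.9 at 6 h and fell 14.1-fold. Inhibitors of the pathway upstream of ERK fell as well, with slopes of -0.63 ± 0.18 for SPRY2, -0.61 ± 0.16 for SPRY4, -0.52 ± 0.07 for SPRED1 and -0.55 ± 0.09 for SPRED2. The transcription factor genes ETV4 and ETV5 and the cyclin gene CCND1 did not pass, with slopes of 0.15 ± 0.06, -0.18 ± 0.07 and -0.04 ± 0.08.

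Immediate early genes, which cells switch on within minutes of a stimulus, had the most negative median of the lists with at least 7 tested genes, at -0.51 log2 per hour (-1.004 without the 6 h library). Only 10 of 32 were tested, of which 8 fell (80%, against 22.6% of all tested genes) and none rose. With the wider filter, 16 of 28 fell, against 16.8% of all genes, and none rose. Without the 0 h library 5 of 10 fell. SGK1, a kinase gene, had 159 CPM at 0 h, 87.4 at 1 h, 14.7 at 3 h and 11.1 at 6 h and a slope of -0.66 ± 0.12. BTG1, which encodes a partner of the CCR4-NOT deadenylase, had 216 CPM at 0 h, 149 at 1 h, 22.6 at 3 h and 15.3 at 6 h and a slope of -0.68 ± 0.12. The nuclear receptor gene NR4A1 and the AP-1 subunit gene FOSL1 fell at -0.56 ± 0.11 and -0.38 ± 0.09. EGR1 did not pass (-0.28 ± 0.14).

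Genes of secreted signals and of TGF-beta signalling gave more fallers than risers. Of all tested genes, 22.6% fell and 20.1% rose. Of 13 tested genes for secreted inflammatory factors (23 listed), 7 fell (53.8%) and none rose, with a median slope of -0.26. IL1A, which encodes the cytokine interleukin 1 alpha (ENSG00000115008; chr2:112773925-112784493, minus strand), had 244 CPM at 0 h, 244 at 1 h, 71.6 at 3 h and 15.3 at 6 h. It kept its level for the first hour and then fell, 16.0-fold in all, with a slope of -0.71 ± 0.07. PTGS2, which encodes the prostaglandin synthase COX-2, had 299 CPM at 0 h, 382 at 1 h, 211 at 3 h and 89.4 at 6 h and a slope of -0.33 ± 0.07. It was higher at 1 h than at 0 h and declined afterwards. Of 15 tested genes of TGF-beta and BMP signalling (24 listed), 9 fell (60%) and 1, TGFB1, rose (0.22 ± 0.07). Their median slope was -0.39. INHBA, which encodes the activin A subunit (ENSG00000122641; chr7:41667168-41705834, minus strand), had 619 CPM at 0 h, 532 at 1 h, 194 at 3 h and 47.7 at 6 h and fell 13.0-fold with a slope of -0.64 ± 0.05 (edgeR adjusted p = 0.0101). The receptor genes TGFBR2 and BMPR1A fell at -0.69 ± 0.10 and -0.44 ± 0.07.

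The genes of the p53 response and the clock gave smaller counts. On the p53 list 7 of 15 tested genes fell (46.7%, against 22.6% of all tested genes) and none rose. The median slope was -0.30. MDM2, which encodes the ubiquitin ligase that degrades p53, had 505 CPM at 0 h, 579.8 at 1 h, 359 at 3 h and 76.6 at 6 h and a slope of -0.48 ± 0.09. PPM1D, CCNG2 and PMAIP1 fell at -0.64 ± 0.14, -0.51 ± 0.07 and -0.50 ± 0.08. Of 7 tested clock genes (17 listed) 3 fell, with a median slope of -0.17; with the wider filter 3 of 16 fell, close to the 16.8% of all genes, and the median was -0.35. RORA, a nuclear receptor gene of the clock, had 115, 62.4, 15.3 and 10.7 CPM and NR1D2 had 180.3, 201, 131 and 36.8 CPM. Both were lowest at 6 h.

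Of the lists used, that of zinc finger genes named ZNF held the most fallers. Of 557 in the table, 172 were tested, 123 fell (71.5%, against 22.6% of all tested genes) and none rose. The median slope was -0.42. With the wider filter 214 of 408 fell and 1 rose. Their summed share of all counts was 1.38% at 0 h, 1.10% at 1 h, 0.457% at 3 h and 0.206% at 6 h. ZNF697, ZNF772 and ZNF800 show the pattern. ZNF772 had 57.1 CPM at 0 h, 47.3 at 1 h, 14.8 at 3 h and 4.40 at 6 h and a slope of -0.65 ± 0.08. ZNF800 had 104, 101, 30.0 and 8.79 CPM, and ZNF697 196, 209, 61.7 and 26.8 CPM. Many ZNF genes are near copies of each other, and the sources used here do not say how reads that match several genes were counted, so single members are uncertain. Adaptors of ubiquitin ligases with KLHL, KBTBD and FBXO names fell in 20 of 38 tested cases (52.6%) and rose in 1, KLHL5. Their median slope was -0.26, and without the 1 h library 12 fell. KLHL9 had 49.5, 44.7, 16.6 and 2.93 CPM (-0.69 ± 0.09) and FBXO32 111, 122, 31.3 and 12.1 CPM (-0.59 ± 0.09).

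Transcripts of the decay machinery itself were split. Of 46 tested genes of mRNA decay 11 fell (23.9%) and 1, EDC4, rose, a share of fallers near the 22.6% of all tested genes, with a median slope of -0.12. CNOT4 and CNOT8, which encode a ubiquitin ligase and a deadenylase of the CCR4-NOT complex, fell at -0.61 ± 0.08 and -0.55 ± 0.08, and CNOT2 at -0.42 ± 0.07. Of 14 tested microRNA silencing factors, 6 fell and none rose (median -0.19), but 3 of 15 fell with the wider filter, where 16.8% of all genes did, and 3 of 14 without the 1 h library. LIN28B, which encodes an inhibitor of let-7 processing, had 47.4 CPM at 0 h, 31.3 at 1 h, 4.15 at 3 h and 2.72 at 6 h and a slope of -0.76 ± 0.13. TNRC6A and TNRC6B, which link Argonaute to deadenylation, fell at -0.32 ± 0.06 and -0.46 ± 0.10, and DICER1 at -0.22 ± 0.05. Of 11 tested AU-rich element and related binding proteins 5 fell and 1, KHSRP, rose (median -0.18); without the 1 h library 3 fell. The Pumilio gene PUM2 was among the fallers, at -0.30 ± 0.06.

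The risers were led by LAPTM4B, which encodes a lysosomal membrane protein, with 57.4 CPM at 0 h, 74.4 at 1 h, 482 at 3 h and 1285 at 6 h. Its slope was 0.80 ± 0.09 log2 per hour, and its level was 22.4 times higher at 6 h than at 0 h. The next of the 12 most positive slopes chosen by the same rule was that of GAPDHP1, a processed copy of GAPDH (0.50 ± 0.06). GAPDH itself (ENSG00000111640; chr12:6534512-6538374, plus strand) had 413 CPM at 0 h, 537 at 1 h, 1006 at 3 h and 3036 at 6 h and a slope of 0.48 ± 0.04. Reads of the copy and the gene cannot be told apart with certainty. The other members of the group were ECM1, BSG, PDZD11, S100A11, PPIAP31, MMP2, SH3BGRL3, ERAP1 and TAGLN2. BSG, which encodes a chaperone of lactate transporters, had 17.5, 24.4, 48.2 and 136 CPM. MMP2, which encodes a gelatinase, stayed between 29.6 and 39.4 CPM to 3 h and stood at 217 CPM at 6 h.

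Genes for metabolism, secretion and structure rose as groups relative to the scaled labelled RNA. Of 16 tested glycolytic genes 15 rose and none fell (median slope 0.36), of 25 lysosomal genes 21 rose and none fell (0.39), and of 26 matrix genes 21 rose and 1, COL5A1, fell (0.32). Of all tested genes, 20.1% rose and 22.6% fell. The directions of these groups depend on the scale. When glycolytic mRNAs were taken as constant, the median slope shifted by -0.39 and only 3 of all tested genes rose (DDOST, LAPTM4B and ALDH2). With total counts as the scale it shifted by -0.11 and 798 rose. A change of scale moves all slopes nearly alike, so by construction it leaves a list's distance from the median gene almost as it was, 0.38 for glycolysis.

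Among glycolytic genes, PGK1 had 435 CPM at 0 h, 523 at 1 h, 886 at 3 h and 2137 at 6 h and LDHB had 664 CPM at 0 h, 853 at 1 h, 1443 at 3 h and 3354 at 6 h. Both were higher at each time, with slopes of 0.39 ± 0.04 and 0.39 ± 0.03. TPI1 rose at 0.42 ± 0.04. Lysosomal enzymes had similar profiles. TPP1, a lysosomal peptidase gene, had 47.1, 67.0, 112 and 329 CPM, and PSAP, which encodes the precursor of the saposins, had 178, 200.2, 374.5 and 1116 CPM. LAMP2, which encodes an abundant protein of the lysosome membrane, rose at 0.41 ± 0.04.

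On the TMM scale, matrix genes included abundant transcripts of this line. SPARC, which encodes a secreted collagen-binding protein, had 1324 CPM at 0 h, 1586 at 1 h, 2832 at 3 h and 7879 at 6 h and a slope of 0.44 ± 0.04 (edgeR adjusted p = 0.0101). LAMC1 and NID1, which encode the laminin gamma 1 chain and nidogen of basement membranes, rose at 0.39 ± 0.04 and 0.44 ± 0.04, and TNC, which encodes tenascin C, at 0.33 ± 0.04. Chaperones rose in 27 of 38 tested cases (71.1%, against 20.1% of all tested genes) and fell in none (median 0.25). HSP90B1, the HSP90 of the endoplasmic reticulum, had 1308 CPM at 0 h, 1788 at 1 h, 2845 at 3 h and 7462 at 6 h; CANX and PDIA3, which fold glycoproteins there, rose at 0.38 ± 0.03 and 0.42 ± 0.04. Actin and tubulin genes rose in 18 of 21 cases (median 0.30), and genes of the interferon response and MHC class I in 11 of 15 (0.29), with HLA-C at 0.45 ± 0.07 and TAPBP, which loads peptides onto MHC class I, at 0.43 ± 0.05.

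Genes of the cytosolic ribosome and the respiratory chain lay on the rising side on the TMM scale. Few of those of the mitochondrial ribosome were called. Of all tested genes, 20.1% rose and 22.6% fell. Of 78 tested cytosolic ribosomal protein genes 42 rose and none fell, with slopes from 0.02 to 0.42 and a median of 0.26; with glycolytic mRNAs held constant none rose and 14 fell. The median rests on the last time: it was 0.01 without the 6 h library and 0.40 without the 0 h library, and 0, 18, 58 or 69 genes rose without the 6, 1, 3 or 0 h library. RPS4X, a small subunit gene, had 283 CPM at 0 h, 271 at 1 h, 464 at 3 h and 1327 at 6 h and a slope of 0.39 ± 0.05. It was flat between 0 and 1 h. Translation factors rose in 16 of 35 cases (45.7%) and fell in 1, EIF4E (median 0.21). Proteasome subunits rose in 16 of 35 (45.7%, median 0.20). Without the 6 h library these medians were 0.11 and 0.05, and without the 1 h library 5 proteasome genes rose. Nuclear genes of the respiratory chain rose in 36 of 66 cases (median 0.25, or 0.03 without the 6 h library) and none fell, and in 15 without the 1 h library, with ATP5F1B, which encodes a subunit of the ATP synthase, at 382, 462, 814 and 1899 CPM. Genes of the mitochondrial ribosome gave 6 risers (10.3%) and 5 fallers (8.62%) of 58 (median 0.04), and 1 of each without the 1 h library. Both shares were under those of all tested genes. MRPL37 rose at 0.31 ± 0.06 and MRPL46 fell at -0.43 ± 0.09.

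**Figure D2:**
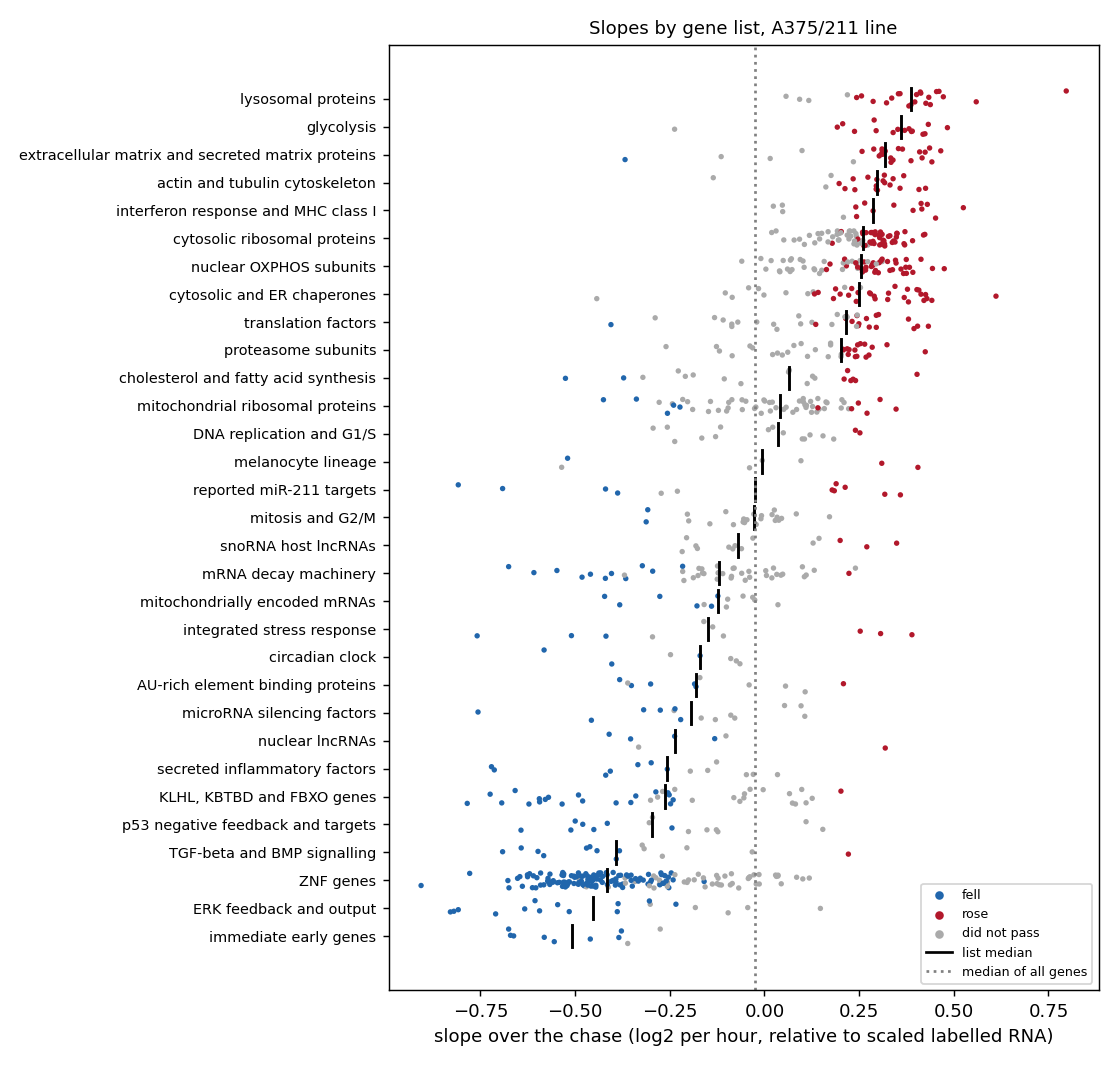
Slope of each tested gene (points; blue fell, red rose, grey did not pass) by gene list, in log2 per hour on the TMM scale, with list medians (black bars) and the median of all tested genes (dotted line). Medians run from -0.51 for immediate early genes to 0.39 for lysosomal proteins; the red calls depend on the scale, and with glycolytic mRNAs held constant 3 genes of all tested rose.

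RNA made inside mitochondria split by type. The 2 mitochondrial rRNAs rose on the TMM scale: MT-RNR2, the large rRNA, took 7.38%, 10.4%, 16.7% and 26.4% of all counts at 0, 1, 3 and 6 h, with a slope of 0.41 ± 0.04. At 0 h the exact 95% binomial interval ran from 7.35% to 7.42%, which covers counting error only. Of the 13 mitochondrially encoded mRNAs 6 fell and none rose; 3 fell with DESeq2, with the wider filter or without the 1 h library, and 10 with total counts as the scale. Over these 13, the summed share was 9.71%, 9.19%, 5.85% and 3.90%. MT-ND1 and MT-ND2, which encode subunits of complex I, fell at -0.42 ± 0.11 and -0.38 ± 0.07, and MT-CYB, of complex III, at -0.28 ± 0.05. MT-CO1 and MT-CO2, of complex IV, did not pass (-0.06 ± 0.05 and -0.03 ± 0.05). The share of nuclear protein-coding genes was 70.8% at 0 h and 55.8% at 6 h. Leaving all mitochondrially encoded genes out of the library sizes gave 3037 fallers and 1235 risers.

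**Figure D3:**
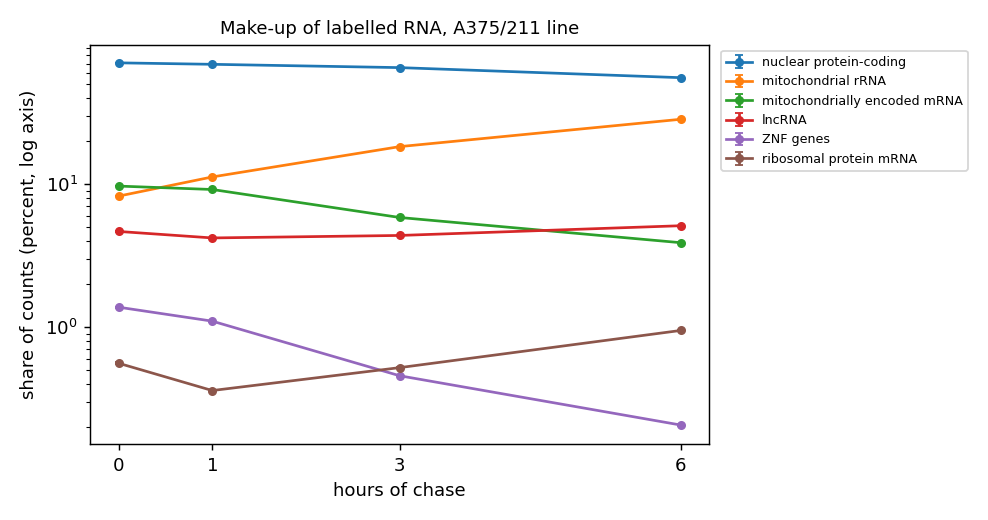
Share of all gene counts taken by 6 classes of RNA in A375/211 (percent, log axis) against hours of chase, 1 library per time. Mitochondrial rRNA climbs from 8.26% to 28.5% while mitochondrially encoded mRNA and ZNF genes lose share at every later time.

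Other RNA classes differed too. On the TMM scale, of 544 tested processed pseudogenes, which are mostly intronless copies of abundant mRNAs, 277 rose and 24 fell (median slope 0.23), and reads of a copy and its parent cannot be told apart with certainty. Of 493 lncRNAs, 122 fell (24.7%) and 56 rose (11.4%), with a median of -0.10. The share of fallers was close to the 22.6% of all tested genes. The share of risers was lower than the 20.1% of all tested genes. MALAT1, a nuclear lncRNA of speckles, had 11855 CPM at 0 h, 17229.9 at 1 h, 24952 at 3 h and 47314 at 6 h and rose at 0.32 ± 0.04. NEAT1, the scaffold of paraspeckles, had 2905 CPM at 0 h, 2827 at 1 h, 2229 at 3 h and 1728 at 6 h and fell at -0.13 ± 0.04. KCNQ1OT1, an imprinted antisense lncRNA with the same doubt about strand, fell at -0.41 ± 0.07. Replication-dependent histone mRNAs, most of which lack a poly(A) tail, were near the floor: 4 of 65 were tested and 1, H1-2, rose.

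Few cell cycle genes were called, and lineage genes were mixed. Of 23 tested mitotic genes 2 fell (8.70%), CCNA2 (-0.31 ± 0.09) and TTK (-0.31 ± 0.10), and none rose. No mitotic gene fell with the wider filter, without the 1 h library or with the rank of the time. Of 16 genes of DNA replication 2 rose (12.5%), RRM1 among them, and none fell. These shares were under those of all tested genes, of which 22.6% fell and 20.1% rose. MITF, the master regulator of the melanocyte lineage (ENSG00000187098; chr3:69739456-69968336, plus strand), had 65.2 CPM at 0 h, 38.7 at 1 h, 12.9 at 3 h and 7.75 at 6 h and a slope of -0.52 ± 0.09 (edgeR adjusted p = 0.0110). It was lower at every later time. SOX10, which encodes a factor that drives MITF, did not pass: it had 37.1 CPM at 0 h, 137 at 1 h, 14.8 at 3 h and 11.5 at 6 h, and the 1 h value stands apart from the rest (-0.54 ± 0.21). DCT and PMEL, which encode a pigment enzyme and a melanosome protein, rose at 0.31 ± 0.07 and 0.41 ± 0.09. Neither rise passed without the 1 h library or with the rank of the time, and PMEL had 8, 9, 15 and 47 counts. Lipid synthesis was split on the TMM scale: of 19 tested genes of cholesterol and fatty acid synthesis 6 rose and 2 fell (median 0.07); without the 1 h library 3 rose, and without the 3 h library 5 fell. MSMO1, an enzyme gene of cholesterol synthesis, fell at -0.53 ± 0.09. FASN, the fatty acid synthase gene, rose at 0.40 ± 0.05. Of 10 tested genes of the integrated stress response (16 listed), 3 fell (30%) and 3 rose (30%), against 22.6% and 20.1% of all tested genes. With glycolytic mRNAs held constant 7 fell and none rose. PPP1R15B, a phosphatase regulator gene, had 140.1, 166, 22.6 and 9.001 CPM, and PHGDH, an enzyme gene of serine synthesis, 5.74, 7.77, 13.2 and 29.5 CPM.

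Transcript structure went along with the slope over 8381 protein-coding genes with a 3' UTR in GENCODE 44, as a description across genes, which are not independent replicates. The median 3' UTR was 2460 bases in fallers, 1614 in genes that did not pass and 1024 in risers. Exon junctions per kilobase of transcript were 1.84, 3.03 and 3.82, and GC content at the last position of codons 46.7%, 53.2% and 58.8%. Across these genes, Spearman's rho of the slope was 0.36 with junctions per kilobase, -0.30 with 3' UTR length and 0.23 with the level in total RNA.

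Sites in the 3' UTRs were then counted on the transcript strand, overlapping matches included. The AU-rich heptamer TATTTAT was in 55.4% of fallers, 40.1% of genes that did not pass and 29.9% of risers. Over all 8381 tested genes the share was 41.8%. Over 19550 3' UTRs in the annotation, which include genes not tested here, it was 31.5%. The Pumilio motif TGTANATA was in 52.7%, 33.3% and 19.8%, against 35.3% of the 8381 tested genes and 25.4% of the annotation. The miR-211 site AAAGGGA was in 29.3%, 21.8% and 14.6%, against 22.2% of the 8381 tested genes and 17.3% of the annotation. Since longer 3' UTRs hold more of any short word, the counts were also taken per kilobase. Over fallers, genes that did not pass and risers, the Pumilio motif then stood at 0.315, 0.232 and 0.171 per kilobase, the AU-rich heptamer at 0.366, 0.330 and 0.303 and the miR-211 site at 0.129, 0.125 and 0.104. Per kilobase, the Pumilio motif differed most between fallers and risers.

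The genes were also split into 4 equal groups by 3' UTR length. In the shortest group the median slope was -0.07 log2 per hour in genes with a Pumilio motif and 0.12 in genes without it, and in the longest group -0.16 and -0.08. For the AU-rich heptamer the medians were 0.03 and 0.11 in the shortest group and -0.14 and -0.09 in the longest. For the miR-211 site they were 0.08 and 0.10 in the shortest, -0.01 and -0.02 in the second, -0.11 and -0.08 in the third and -0.14 and -0.12 in the longest. Genes with 3 or more Pumilio motifs (423 genes) had a median slope of -0.21, and 200 of them fell (47.3%) and 28 rose (6.62%). In the longest group as a whole 33.6% fell and 11.1% rose. This count was not split by length: the median 3' UTR was 4960 bases in these genes and 1146 in genes without the motif.

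**Figure D4:**
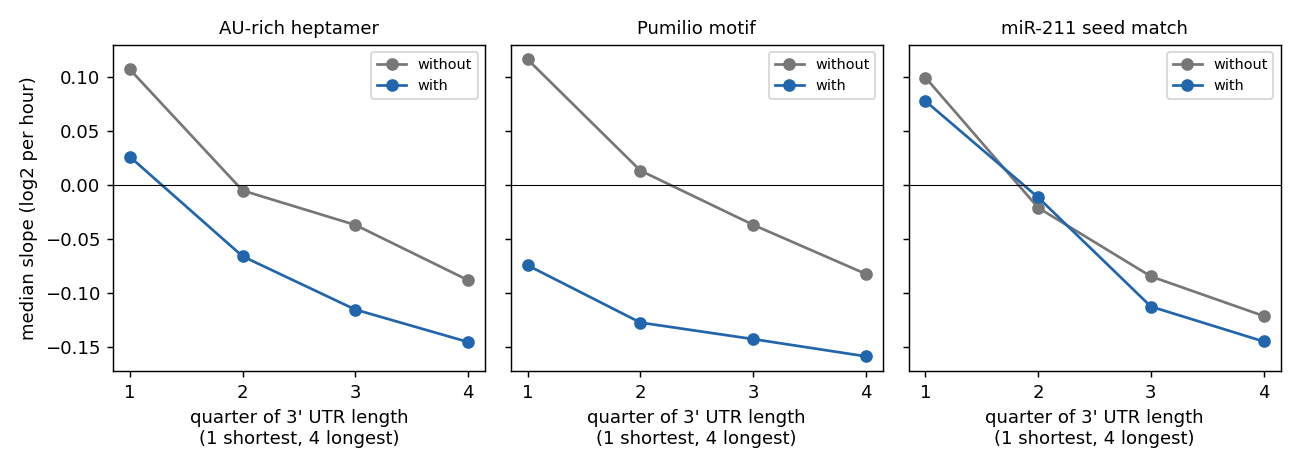
Median slope (log2 per hour) of 8381 protein-coding genes in 4 equal groups of 3' UTR length, with (blue) and without (grey) an AU-rich heptamer, a Pumilio motif or a miR-211 seed match in the 3' UTR. The gap is widest for the Pumilio motif in the shortest group (-0.07 against 0.12) and small for the seed match, where the order turns in the second group.

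The sites below are shown from the 3' UTRs of genes whose labelled RNA fell, each with 10 bases on either side and the motif in capitals, as DNA letters of the GENCODE 44 transcript. IL1A holds 3 AU-rich heptamers, INHBA 4, PTGS2 7, PHLDA1 3 and ZNF281 1, and the first of each is printed.
IL1A: ttttaattatTATTTATatatgtattt
INHBA: accaatttcaTATTTATttaagattga
PTGS2: ctaatgatcaTATTTATttatttatat
PHLDA1: agaagactttTATTTATgaacctttga
ZNF281: gggcatgcatTATTTATtatacatggc
The heptamer of PTGS2 runs on into 2 further overlapping copies 4 and 8 bases on. NFKBIZ holds 4 Pumilio motifs and TGFBR2 holds 1, and again the first is printed.
NFKBIZ: ctgatgtatcTGTACATAgaccatttgc
TGFBR2: tattaatgccTGTATATAaatatgaata
A match is a description of the letters and does not show that a protein binds there. DUSP10 and KLHL9, which also fell steeply, hold none of the 3 motifs in their 3' UTRs. SPARC, LAMC1 and NID1 rose and hold 1, 2 and 2 AU-rich heptamers.

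Transcripts reported as miR-211 targets moved in both directions. Of 15 listed genes 12 were tested, 4 fell (33.3%) and 6 rose (50%), against 22.6% and 20.1% of all tested genes. The median slope was -0.03, close to the -0.02 of all tested genes. The calls depend on the scale: with total counts 6 fell and 2 rose, and with glycolytic mRNAs held constant 10 fell and none rose. With the wider filter 7 of 15 fell and 6 rose, where 16.8% of all genes fell and 15.3% rose. The median in that fit was -0.22 against -0.07 for all genes. The median was 0.13 without the 6 h library, -0.10 without the 0 h library, and 2 rose without the 1 h library. DUSP3, which encodes a small phosphatase of MAP kinases (ENSG00000108861; chr17:43766125-43778977, minus strand), had 32.9 CPM at 0 h, 37.4 at 1 h, 11.002 at 3 h and 7.33 at 6 h and a slope of -0.42 ± 0.10 (edgeR adjusted p = 0.0192). It was higher at 1 h than at 0 h and lower at 3 and 6 h. In A375 its values at 0, 1, 3 and 6 h were 26.7, 30.5, 31.1 and 11.4 CPM, with a slope of -0.21 ± 0.10, and the difference between the lines was -0.20 ± 0.14 log2 per hour (edgeR unadjusted p = 0.197, adjusted p = 1).

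The other fallers of this list were DUSP6, TGFBR2, which had 80.3, 90.3, 27.1 and 5.65 CPM, and RAB22A, a gene of endosome transport with 68.6, 71.2, 47.4 and 14.4 CPM. PDK4, a kinase gene that restrains entry of pyruvate into mitochondria, and the transcription factor genes POU3F2 and SOX11 were under the count minimum of the test and fell with the wider filter. PDK4 had 19.9 CPM at 0 h, 18.1 at 1 h, 3.19 at 3 h and 1.26 at 6 h (-0.69 ± 0.11) and POU3F2 had 30.5, 28.4, 3.99 and 1.88 CPM (-0.71 ± 0.13). The risers were IGFBP5, IGF2R, KCNMA1, AP1S2, SERINC3 and EDEM1. IGF2R, which encodes the receptor that carries enzymes to lysosomes, had 116 CPM at 0 h, 162 at 1 h, 215 at 3 h and 459 at 6 h and a slope of 0.32 ± 0.04. IGFBP5, which encodes a binding protein of insulin-like growth factors, had 2.42, 3.99, 6.38 and 12.4 CPM. NUAK1 and NFAT5 did not pass (-0.27 ± 0.09 and -0.23 ± 0.11). The sites are printed because fallers and risers both hold them; DUSP3 has 2, PDK4, TGFBR2, IGF2R and IGFBP5 have 1, and capitals mark AAAGGGA.
DUSP3, site 1: gatggtttggAAAGGGAatgttggtgc
DUSP3, site 2: tctggacagaAAAGGGAgagctaccaa
PDK4: taagaataagAAAGGGAgtgagtgtga
TGFBR2: tactatacatAAAGGGAaagttttatt
IGF2R (rose): gaaactttcaAAAGGGAagagtttttg
IGFBP5 (rose): ttggatggggAAAGGGAaggtggggag

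The same slopes were taken from the 4 A375 libraries in a separate fit. Over 8952 genes tested in both lines, Pearson's r of the slopes was 0.92 and Spearman's rho 0.92, a description across genes that share their sequence and the assay. Of these 8952 genes, 1983 fell in A375/211, 2190 fell in A375 and 1653 fell in both. The shared fallers were 83.4% of those in A375/211 and 75.5% of those in A375. In A375/211 1831 rose, in A375 2289 rose, and 1616 rose in both. The shared risers were 88.3% of those in A375/211 and 70.6% of those in A375. Genes called in opposite directions numbered 2, GLIPR1 and PAPPA. In the test of the difference itself, over 13703 genes and all 8 libraries, edgeR called none (0%), with 527 genes at an unadjusted p under 0.05. With chase time as a block, in a fit added after seeing the data, it called 1, LAPTM4B, with 1372 at an unadjusted p under 0.05. DESeq2 called 14 (0.102%), of which 3 were more negative in A375/211 and 11 more positive.

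The median difference between the lines was close to 0 at each number of miR-211 sites, in groups not matched for 3' UTR length. The median difference in slope, A375/211 minus A375, was 0.00 log2 per hour in 6518 genes without the site, 0.00 in 1429 genes with 1, 0.02 in 340 with 2 and 0.01 in 94 with 3 or more. Values below 0 would mean faster loss in A375/211. The median difference also went with 3' UTR length, from -0.022 in the shortest of the 4 length groups to 0.022 in the longest. From shortest to longest, it was -0.026, 0.007, 0.0001 and 0.015 in genes with the site. In genes without it the values were -0.021, -0.004, 0.008 and 0.027. Genes with the site were thus lower in each group but the second, by small amounts that were not tested.

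Among well-measured genes, HMGA2 had the smallest unadjusted p for a more negative slope in A375/211. HMGA2, which encodes an architectural chromatin protein (ENSG00000149948; chr12:65824460-65966291, plus strand), had 579.6 CPM at 0 h, 409 at 1 h, 244 at 3 h and 110.1 at 6 h. In A375 it had 338, 334, 387 and 324 CPM at those times, and its slope did not pass (-0.00 ± 0.04). The difference in slope was -0.38 ± 0.05 log2 per hour (edgeR unadjusted p = 0.000123, adjusted p = 1; DESeq2 adjusted p = 5.92e-05). The CPM of each line come from a TMM scaling of that line alone, so comparisons of level between the lines are approximate. On these scales the levels cross: HMGA2 was higher in A375/211 at 0 and 1 h and lower at 3 and 6 h. CBFB, which encodes the partner of the RUNX factors, had 88.8, 106, 32.5 and 18.4 CPM in A375/211 and 38.6, 47.6, 151 and 108 CPM in A375. The difference was -0.71 ± 0.17, and the level was higher in A375/211 at 0 and 1 h and lower at 3 and 6 h. RAN, the nuclear transport GTPase gene, and HMGB2, another chromatin protein gene, differed by -0.39 ± 0.09 and -0.31 ± 0.08, with no call by either tool. PARPBP differed by -0.31 ± 0.08.

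In the other direction, GLIPR1, which encodes a protein of the CAP family, had 38.4 CPM at 0 h, 82.6 at 1 h, 115 at 3 h and 154 at 6 h in A375/211 and 57.8, 34.1, 22.1 and 12.2 CPM in A375. It was higher at each later time in A375/211 and lower at each later time in A375, a difference of 0.65 ± 0.11 log2 per hour (edgeR unadjusted p = 0.000361, adjusted p = 1; DESeq2 adjusted p = 5.92e-05). PAPPA, which encodes a protease that cuts insulin-like growth factor binding proteins, had 66.7, 66.6, 87.7 and 135 CPM in A375/211 and 28.7, 18.9, 10.03 and 8.18 CPM in A375. The difference was 0.49 ± 0.08, and every value in A375/211 was above every value in A375, with each line on its own TMM scale. ITGB8, which encodes an integrin subunit that activates TGF-beta, had 2542, 3143, 2991 and 2419 CPM in A375/211, without a slope that passed (-0.03 ± 0.04), and 507, 525, 323 and 131 CPM in A375, where it fell. LRP8, a lipoprotein receptor gene, differed by 0.37 ± 0.07 and ZNF208 by 0.36 ± 0.08. LAPTM4B, the steepest riser, had 247, 195, 515 and 303 CPM in A375, and its difference of 0.71 ± 0.18 was called by DESeq2 and, with chase time as a block, by edgeR (adjusted p = 0.0117). Seed matches for miR-211 were found on both sides: HMGA2, CBFB and LRP8 hold 1 in the 3' UTR and GLIPR1 holds 2, while RAN, HMGB2, PAPPA, ITGB8 and LAPTM4B hold none.

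**Figure D5:**
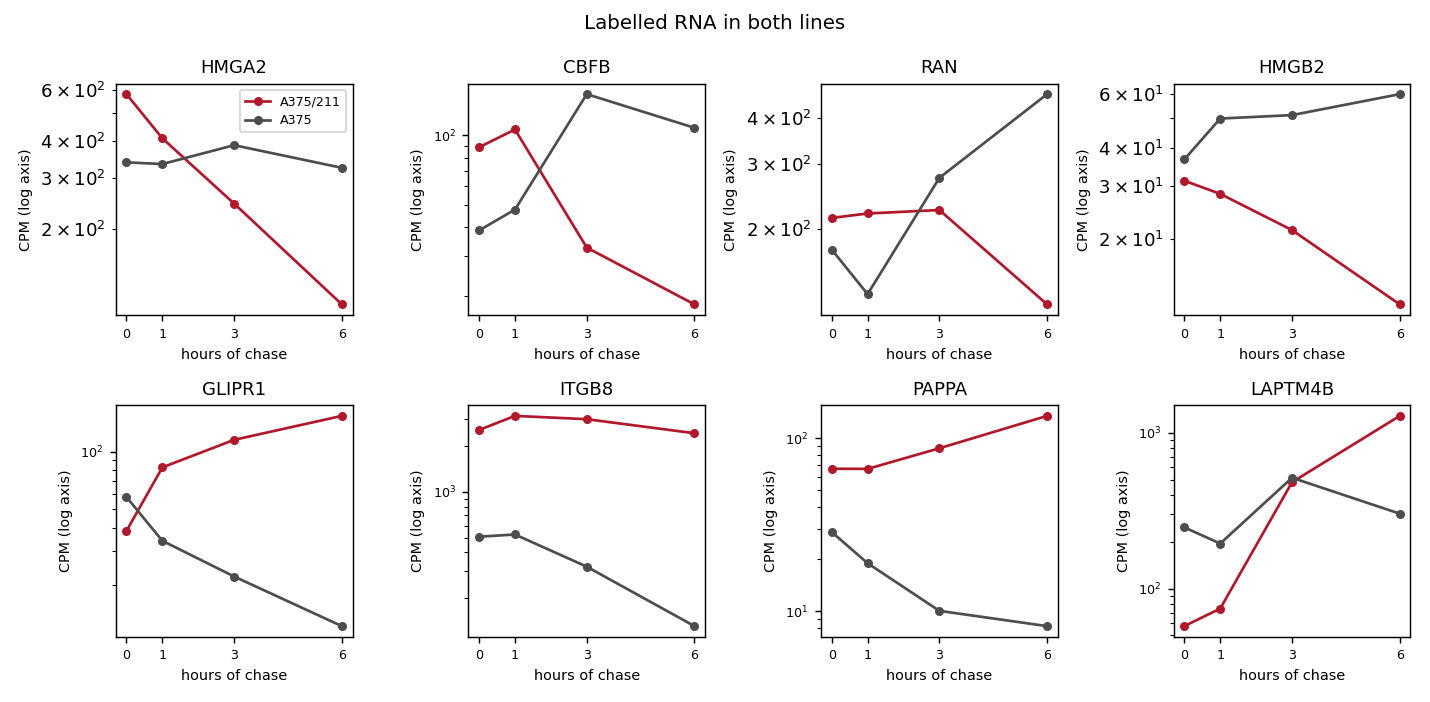
Labelled RNA of 8 genes in A375/211 (red) and A375 (grey), as CPM on log axes against hours of chase, 1 library per point, TMM-scaled within each line. HMGA2, CBFB, RAN and HMGB2 end lower in A375/211 than in A375, and GLIPR1, ITGB8, PAPPA and LAPTM4B end higher in A375/211; edgeR called none of these differences, except that of LAPTM4B with chase time as a block.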

How the data were processed

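The authors deposited read counts per gene, as whole numbers with no normalization, in a table for BRIC-seq and a table for RNA-seq. Reads were aligned with HISAT2 2.1.0, and StringTie is also named, per the submitters' processing notes. The notes name hg19 and the series' design text hg38, so no coordinates were taken from the tables. The sources used here do not give the strand setting or the treatment of multi-mapping reads. Of 60675 gene rows, 41209 (67.9%) got a symbol from GENCODE 44; coordinates, 3' UTRs (canonical transcripts) and motifs come from it. A row that names no gene was left out (at most 0.00122% of a library).

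The slope on hours was fitted with edgeR 4.0.16 (R 4.3.3; quasi-likelihood F test, TMM, filterByExpr with a minimum count of 10 and a minimum total of 15, Benjamini-Hochberg over all genes, threshold 0.05) on the 4 A375/211 libraries, which leaves 2 residual degrees of freedom. The slope difference used all 8 BRIC-seq libraries with line, hours and their interaction. The SE is the slope divided by the square root of F. Alternatives were other scalings, filters, DESeq2 1.42.0, a rank of time, chase time as a block (slope difference only) and leaving out each library. The fit was tested on simulated data. Total RNA levels are the mean of the 2 RNA-seq libraries.

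Named genes were the 12 steepest slopes each way (called, average log2 CPM of at least 5, same direction at every step), up to 4 members per list by smallest p, the reported targets, MIR211, TRPM1, GAPDH and MYC, and 5 slope differences of each sign by smallest p. Others were chosen after their values were seen: CCND1, EGR1, ETV4, ETV5, SPRY2, SPRY4, SPRED2, MT-CO1, MT-CO2, TGFB1, KLHL5, EDC4, KHSRP, COL5A1, EIF4E, DDOST and ALDH2. Lists, members and this rule were chosen with earlier results of these data known. Labelled libraries carry no replicates, so depth and counting error set only part of the precision. Results of a few genes and sites are not reported here.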

Additional observations from a re-analysis of the deposited data

Results flagged for a closer look

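A row that names no gene in the BRIC-seq table, left out of every comparison, held 3, 10, 36 and 81 counts in A375/211 at 0, 1, 3 and 6 h. The sources used here do not say what it counts.

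For 14 genes the slope differed between A375/211 and A375 in DESeq2's test of the difference at an adjusted p under 0.05, while edgeR called none of them without a block for chase time. The differences, A375/211 minus A375 in log2 per hour, were 1.70 for BMS1P22, 1.48 for BTG1, 1.14 for C5orf24, 0.88 for TMEM41B, 0.87 for FAM217B, 0.82 for ENSG00000275740, 0.71 for LAPTM4B, 0.65 for GLIPR1, 0.50 for PAPPA, 0.37 for LRP8 and 0.33 for ITGB8. More negative slopes in A375/211 were those of TMED9 (-1.28), CBFB (-0.71) and HMGA2 (-0.37). BTG1 had 716, 707, 142 and 73 counts at 0, 1, 3 and 6 h in A375/211 and 248, 266, 7 and 0 in A375, so its difference rests on few late counts in A375. BMS1P22 had 8, 6, 23 and 13 counts in A375/211, under the count minimum of the slope test. C5orf24 and FAM217B were highest at 1 or 3 h in A375/211, with 32.0, 107, 70.0 and 35.8 CPM and 2.11, 8.82, 9.73 and 5.02 CPM.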

How the results depend on the processing

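The slope calls depend most on the scale and on the 6 h library. The fallers and risers numbered 2207 and 1965. With total counts as the scale they were 3582 and 798 (a shift of the median slope by -0.11). Without mitochondrially encoded genes in the totals, 1235 rose. Holding glycolytic mRNAs constant gave 7591 fallers and 3 risers. With the rank of the time in place of hours, 1205 fell and 1103 rose, and with all 8 libraries in 1 fit, which tested 13703 genes, 2875 fell and 3002 rose. Leaving out 1 library gave from 0 (6 h) to 2402 (3 h) fallers and from 0 to 2195 risers. For the slope difference, edgeR called 0 genes under each of the other scalings, with a mean CPM of at least 5, with the rank of the time and with each of the 8 libraries left out in turn. It called 1 gene with no count filter and 1 with at least 10 counts in any library, both times SPECC1L-ADORA2A, a read-through transcript of 2 genes named after its values were seen, with 53, 6, 0 and 0 counts in A375/211 and 0, 0, 2 and 103 in A375. It called 1 with chase time as a block, LAPTM4B, and DESeq2 called 14. The filter of 10 counts in any library, the rank of the time and the block were chosen for this comparison after seeing the data.

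Of 179 named genes tested, 156 passed, and none passed without the 6 h library, where 7 changed sign. Relative to the median gene, sign changes were found for ITGB8 with a mean CPM of at least 5 (0.00897) and otherwise only when a library was left out. With each library left out in turn, the ranges of these slopes were -0.12 to 0.077 for H4C5, -0.031 to 0.57 for SNHG29, -0.27 to 0.28 for FAP, -0.14 to 0.071 for PDGFRA, -0.061 to 0.17 for KDR, -0.31 to 0.14 for NFAT5, -0.15 to 0.024 for RAN, -0.049 to 0.063 for ITGB8, -0.29 to 0.22 for C5orf24, -0.079 to 0.34 for ENSG00000275740 and -0.14 to 0.48 for FAM217B. The cause was not tested. No paired analysis was possible by replicate number because the BRIC-seq libraries carry none, and the block by chase time is given above. Depth limits genes that fall to few counts: at 6 h, 2242 of the untested genes had under 5 counts.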
